A study of Mus musculus with 6 samples.

Results

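The 8 genes described here encode the coactivators p300 (Ep300) and CBP (Crebbp), 4 catenins (Ctnnb1, Jup, Ctnna1 and Ctnnd1), the catenin inhibitor ICAT (Ctnnbip1) and Cited2, a small protein that binds p300 and CBP. They are the stated target of the compound YH250 and its close partners. The genes were taken from the table by symbol, and all 8 were found among the 41128 genes of the deposited table and passed the minimum for testing, which 13597 genes passed. RNA was sequenced from bone marrow cells of C57BL mice, sorted for the absence of lineage markers, CD41 and CD48 and the presence of Sca1, c-Kit and CD150, the surface phenotype of long-term repopulating hematopoietic stem cells. The mice had received either the vehicle DMSO or YH250 at 2 mg per kg under the skin, and marrow was taken 16 h later. The series title presents YH250 as a compound that blocks p300 from acting with catenin. Each group has 3 libraries, numbered 1 to 3. The labels give neither the age of the mice nor the number pooled for a library, and they do not say that libraries came from separate animals, so p-values measure only the spread between these libraries. The design note of the series foresaw a rise, with YH250, in genes tied to stemness and symmetric division.

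In Wnt signalling, beta-catenin that escapes degradation enters the nucleus, binds TCF and LEF transcription factors and recruits a coactivator with acetyltransferase activity, either p300 or CBP. At the cell membrane, catenins tie cadherins to the actin cytoskeleton. In blood stem cells both coactivators are known to be needed, with separable roles, and Cited2 is known to be required for stem cell maintenance. RNA sequencing measures the transcripts of these genes and not the binding of their proteins.

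Levels are in RPM, reads of a gene scaled to one common total per library. The step between low values put 1 RPM at 21.9 to 31.1 reads, so the least abundant member, Jup, rested on about 101 to 403 reads and Ctnnb1 on 3039 to 4516. The replicate numbers mark a difference between libraries of both groups, which bears on everything below. Cd48, which the sort was to exclude, was at 10.2 and 13.1 RPM in DMSO 1 and YH250 1 but at 258 and 252 RPM in DMSO 3 and YH250 3. Slamf1, which encodes CD150, reached 35.5 and 31.5 RPM in the pair numbered 1 and only 0.515 to 4.69 RPM elsewhere. Itga2b, which encodes CD41 and was also to be excluded, ran the other way, with 43.7 and 37.4 RPM in the libraries numbered 1, 15.3 and 26.3 RPM in those numbered 2 and 5.65 and 7.13 RPM in those numbered 3. The summed level of 6 stem cell markers was 451 to 592 RPM in numbers 1 and 2 and 148 to 201 RPM in number 3, while 4 markers of multipotent progenitors summed to 200.2 and 220.2 RPM in the pair numbered 1, to 815 and 945 RPM in that numbered 2 and to 1565 and 1526 RPM in that numbered 3. YH250 2 stood apart in the sum of 10 endothelial and stromal markers, which was 399 RPM there and 63.2 to 101.6 RPM elsewhere. In bulk RNA, fewer cells of a type and less RNA per cell cannot be told apart.

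YH250 changed the transcript level of none of the 8 genes past the threshold, an adjusted p of 0.05. With limma and Benjamini-Hochberg adjustment over all tested genes, 0% of genes passed, and the adjusted p was 0.999 for each member. At an unadjusted p under 0.05, limma called 231 genes (1.7%) and none of the members. With the replicate number as a block, 0 genes passed after adjustment, 1012 (7.44%) had an unadjusted p under 0.05, and again no member was among them. The ranges of YH250 and DMSO overlapped for all 8 members, whereas they did not overlap for 7.48% of tested genes. In mean, 3 members were higher in YH250 (Ctnnb1, Jup and Ctnna1), as were 51.7% of tested genes, and 5 were lower, as were 48.3%.

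**Figure D1:**
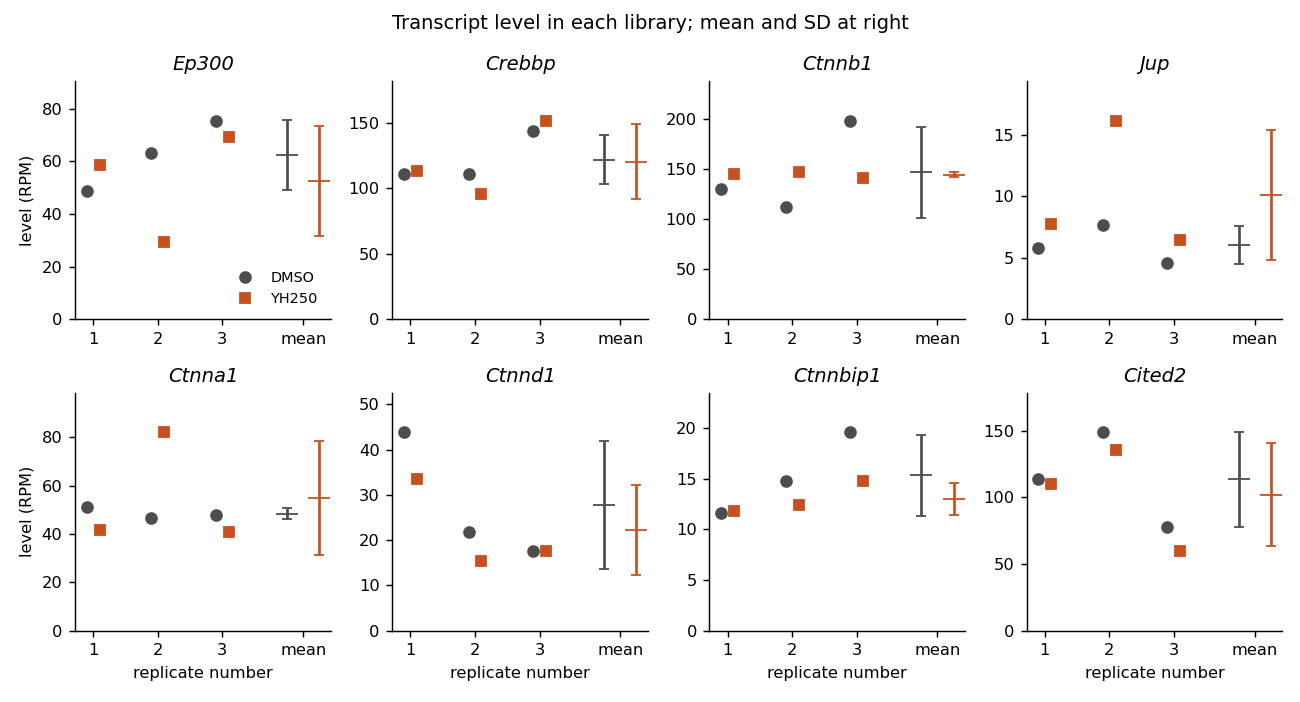
Level of each member (y axis, RPM, from 0) in the 3 DMSO and 3 YH250 libraries by replicate number (x axis), with the group mean and SD at the right of each panel. The values of the 2 groups overlap in all 8 panels, and YH250 2 has the lowest Ep300 (29.2 RPM) and the highest Jup (16.1 RPM) and Ctnna1 (81.9 RPM).

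Of the coactivators, Ep300 (ENSMUSG00000055024.7, GRCm38 chromosome 15, 81585351 to 81652077) encodes p300, which acetylates histones and other proteins at enhancers and promoters. Its level was 48.8, 63.3 and 75.5 RPM in DMSO 1, 2 and 3 and 58.8, 29.2 and 69.5 RPM in YH250 1, 2 and 3. YH250 1 and 3 lay within the range of DMSO and YH250 2 fell below it. The means were 62.5 ± 13.3 RPM for DMSO and 52.5 ± 20.9 RPM for YH250 (here and below mean ± SD, n = 3), a log2 difference of -0.32 with a 95% interval of -1.098 to 0.47 (limma). Without YH250 2 the difference turned to 0.05, and the within-number differences were 0.26, -1.09 and -0.12.

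Crebbp (ENSMUSG00000022521.9, chromosome 16, 4081328 to 4213997) encodes CBP, the paralog of p300. It stood at 111.0, 110.8 and 144 RPM in DMSO and at 113, 95.6 and 152 RPM in YH250. The highest value of either group was that of number 3, and the values of the groups interleaved. The means of 122 ± 18.8 and 120.1 ± 28.7 RPM gave a log2 difference of -0.03 (95% interval -0.59 to 0.52, limma), an interval that holds changes of either sign.

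The balance of the 2 coactivators was read as a ratio within each library, not corrected for length. The log2 ratio of Ep300 to Crebbp (RPM + 1) was -1.17, -0.80 and -0.92 in DMSO and -0.93, -1.68 and -1.12 in YH250. The mean difference between groups was -0.28, which an exact two-sided permutation test did not separate (p = 0.4; the smallest p that 3 against 3 libraries allow is 0.1). YH250 2 had the lowest ratio, and without it the difference was -0.06.

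Ctnnb1 (ENSMUSG00000006932.11, chromosome 9, 120929216 to 120960507) encodes beta-catenin, the catenin of canonical Wnt signalling. Its values in DMSO were spread widely, at 130.1, 112 and 198 RPM, and those in YH250 were close together, at 145, 147 and 142 RPM. All 3 YH250 values fell inside the range of DMSO. The means were 147 ± 45.6 and 145 ± 2.68 RPM and the log2 difference was 0.02 (95% interval -0.55 to 0.59, limma). Its sign was not stable, being -0.04 after quantile normalization and -0.07 after each library was rescaled to the same sum over genes. Exons of Ctnnb1 overlap those of Ulk4 on the opposite strand, and no source used here says whether strand was counted.

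Jup (ENSMUSG00000001552.9, chromosome 11, 100368958 to 100397763) encodes plakoglobin, or gamma-catenin, the closest relative of beta-catenin and a part of desmosomes and adherens junctions. It stood at 5.75, 7.67 and 4.60 RPM in DMSO and at 7.71, 16.1 and 6.47 RPM in YH250. The YH250 library was the higher at each number, by 0.37, 0.98 and 0.42 on the log2 scale, yet YH250 3 remained below DMSO 2. The means were 6.005 ± 1.55 and 10.1 ± 5.26 RPM, a log2 difference of 0.59 (95% interval -0.44 to 1.62) that was the largest among the members and did not pass (limma, unadjusted p = 0.229; 0.144 with the replicate block). Without YH250 2 it was 0.23. A sign shared by all 3 numbers was common, with 16.1% of tested genes higher and 15% lower in YH250 at every number, and among the members Jup alone was higher and Cited2 alone lower. The log2 ratio of Jup to Ctnnb1 within a library was -4.28, -3.71 and -5.16 in DMSO and -4.07, -3.11 and -4.25 in YH250. These ranges overlapped, and the difference of 0.57 was not separated by the exact permutation test (two-sided p = 0.4).

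Ctnna1 (ENSMUSG00000037815.6, chromosome 18, 35118859 to 35254779) encodes alpha-E-catenin, which links the cadherin and beta-catenin complex to actin. It was nearly level in DMSO, at 51.0, 46.5 and 47.7 RPM, and stood at 41.8, 81.9 and 40.8 RPM in YH250. YH250 1 and 3 were below every DMSO library and YH250 2 was above every other library. The log2 difference of 0.10 (95% interval -0.58 to 0.78, limma) turned to -0.22 without YH250 2. Exons of Ctnna1 overlap those of Lrrtm2 on the opposite strand.

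Ctnnd1 (ENSMUSG00000034101.9, chromosome 2, 84600071 to 84650765) encodes p120-catenin, which keeps cadherins at the cell surface. Its values were 43.8, 21.9 and 17.6 RPM in DMSO and 33.6, 15.3 and 17.6 RPM in YH250. Number 1 was highest in both groups. The log2 difference between treatments was -0.29 (95% interval -1.24 to 0.67, limma), and without DMSO 1 it turned to 0.09. A gene model on the same strand, Gm28635, shares exons with Ctnnd1, so reads could have been divided between them.

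Ctnnbip1 (ENSMUSG00000028988.8, chromosome 4, 149518236 to 149566437) encodes ICAT, which blocks the binding of beta-catenin to TCF factors and to p300. It stood at 11.7, 14.7 and 19.6 RPM in DMSO and 11.8, 12.4 and 14.8 RPM in YH250, with the lowest values in number 1 of both groups. The means were 15.3 ± 3.99 and 13.0 ± 1.58 RPM and the log2 difference was -0.20 (95% interval -0.95 to 0.56, limma); without DMSO 3 it was -0.02. An antisense gene model, Gm13066, overlaps its exons.

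Cited2 (ENSMUSG00000039910.9, chromosome 10, 17723218 to 17725674) encodes a protein that competes with the hypoxia factor HIF-1 alpha for a domain of p300 and CBP. It stood at 114, 149 and 77.7 RPM in DMSO and at 110.0, 136 and 60.1 RPM in YH250. The order of the numbers was the same in both groups, with number 2 highest and number 3 lowest, and YH250 was slightly below DMSO at each number (log2 differences of -0.05, -0.13 and -0.36). The means of 113 ± 35.5 and 102 ± 38.5 RPM gave a log2 difference of -0.18 (95% interval -0.98 to 0.62, limma; -0.55 to 0.19 with the replicate block). It turned to 0.04 without DMSO 2 and to 0.16 without YH250 3.

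**Figure D2:**
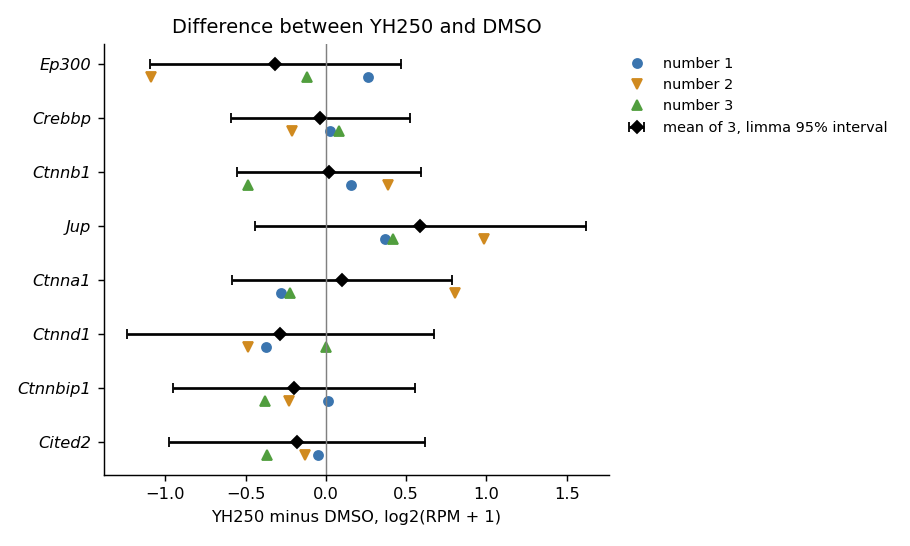
Difference between YH250 and DMSO for each member on the log2(RPM + 1) scale (x axis), as the mean of 3 against 3 libraries with its limma 95% interval (diamonds and bars) and as the difference at each replicate number (coloured marks). Every interval includes 0, and the number 2 marks are the farthest from 0 for Ep300 (-1.09), Jup (0.98) and Ctnna1 (0.80).

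YH250 2 set the outermost value of 5 of the 8 members. It was the lowest library for Ep300, Crebbp and Ctnnd1 and the highest for Jup and Ctnna1. The same library was the highest or lowest for 50.1% of all tested genes, so 5 of 8 is near the background. DMSO 3 was outermost for 4 members (37.5% of genes), YH250 3 for 3 (27.5%), DMSO 1 and DMSO 2 for 2 each (36.8% and 27.6%) and YH250 1 for none (19.7%). On the log2 scale YH250 2 lay -0.89 from the mean of Ep300, 1.02 from that of Jup and 0.70 from that of Ctnna1. Beside these values, YH250 2 had 202 RPM of Cxcl12 against 1.73 to 36.3 RPM elsewhere, 58.2 RPM of Lepr against 0.0455 to 7.99 RPM, and 45.0 RPM of Plvap against 1.27 to 10.7 RPM. Cxcl12 and Lepr mark marrow stroma and Plvap marks endothelium. Of the same list, Emcn (61.7 RPM) and Col1a2 (7.48 RPM) were also highest in YH250 2. Col1a1 (0.291 RPM), Kdr (1.52 RPM), Cdh5 (5.16 RPM), Stab2 (8.63 RPM) and Pdgfrb (8.79 RPM) were not raised there. Of the 8 neutrophil, monocyte and macrophage markers, Adgre1 was at 11.4 RPM in YH250 2 and at 0 to 0.455 RPM elsewhere, while Csf1r was lowest there (0.0804 RPM against 0.574 to 19.6 RPM). Lyz2, like Adgre1, was highest in YH250 2, at 236 RPM against 101 to 189 RPM elsewhere. Mpo, Elane, S100a8, S100a9 and Ly6g, at 48.8, 7.24, 6.12, 3.68 and 0.0405 RPM in YH250 2, lay within the range of the other libraries. None of the 10 endothelial and stromal markers was at 0 in any library. The part of such cells in the values of Jup, Ctnna1 and Ep300 was not tested.

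**Figure D3:**
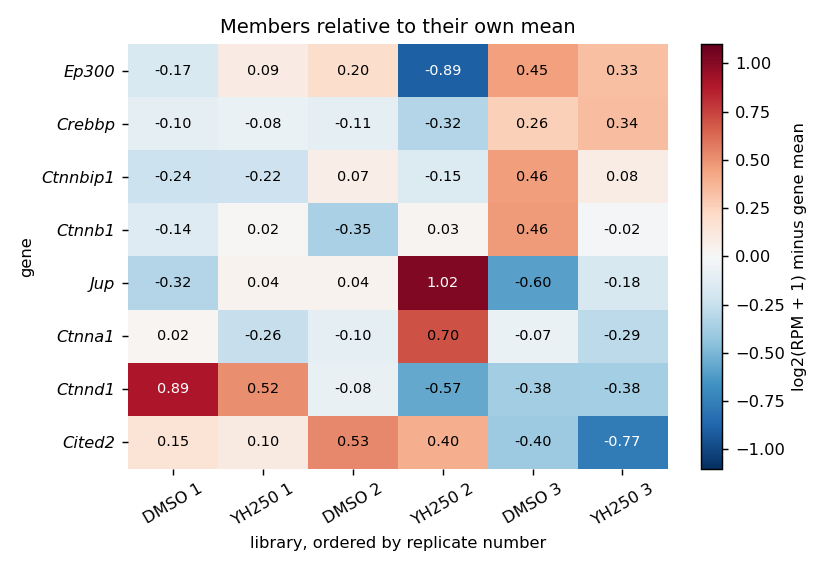
Level of each member relative to its own mean over the 6 libraries (colour and printed value, log2(RPM + 1) minus the gene mean), with the libraries on the x axis ordered by replicate number and the genes on the y axis. YH250 2 holds the lowest Ep300 (-0.89) and the highest Jup (1.02), both libraries numbered 1 are high in Ctnnd1 (0.89 and 0.52), and both numbered 3 are low in Cited2 (-0.40 and -0.77).

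Differences between replicate numbers were larger than those between treatments for several members. The fit took all 6 libraries, 2 to a number, and also held a term for treatment. Cited2 was lower in number 3 than in number 2, by -1.04 ± 0.20 on the log2 scale (SE; limma adjusted p = 0.0178), a contrast in which 6.31% of tested genes passed and 2.64% passed as lower. It was the one member to pass in any contrast between numbers. Both libraries numbered 3 were below the other 4, as they were for 14.3% of genes, and both numbered 2 were above the other 4, as for 9.69%. The call was lost without YH250 3 (-0.91, adjusted p = 0.0671), with no minimum mean (adjusted p = 0.131) and without the trend and robust options of limma (adjusted p = 0.129), and over all alternatives its adjusted p ran from 0.00547 to 0.131. The difference of Cited2 between numbers 3 and 1, -0.70 ± 0.20, did not pass (limma adjusted p = 0.0626), in a contrast where 8.56% of genes passed. By direction, 5.6% passed as higher and 2.96% as lower in that contrast, 3.67% as higher between numbers 3 and 2, and 0.177% as higher and 0.0221% as lower between numbers 2 and 1. At an unadjusted p under 0.05 limma held Ctnnd1 and Cited2 between numbers 3 and 1 (24.4% of genes), Ctnnd1 between numbers 2 and 1 (14.3%) and Ep300, Crebbp and Cited2 between numbers 3 and 2 (25.3%). The contrast of numbers 3 and 1 did pass for Cited2 after quantile normalization (-0.96, adjusted p = 0.0107), after rescaling to the same sum (-1.06, adjusted p = 0.00961), without DMSO 2 (adjusted p = 0.0238), without YH250 2 (adjusted p = 0.021) and with a minimum mean of 5 RPM (adjusted p = 0.0436), and over all alternatives its adjusted p ran from 0.00961 to 0.324.

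Ctnnd1 was at 43.8 and 33.6 RPM in the pair numbered 1 and at 15.3 to 21.9 RPM in the other 4 libraries, with no overlap, as for 9.58% of tested genes. The log2 difference was -1.08 ± 0.30 between numbers 3 and 1 (limma adjusted p = 0.0572) and -1.02 ± 0.30 between numbers 2 and 1 (limma adjusted p = 0.211), where 0.199% of genes passed. Neither contrast passed as fitted. The first passed after quantile normalization (-1.16, adjusted p = 0.0403), after rescaling (-1.42, adjusted p = 0.0255), with a minimum mean of 5 RPM (adjusted p = 0.0398), without DMSO 2 (adjusted p = 0.00486) and without YH250 2 (adjusted p = 0.0032), and the second without DMSO 2 (-1.17, adjusted p = 0.027). Over all alternatives the limma adjusted p of Ctnnd1 ran from 0.0032 to 0.559 for the first and from 0.027 to 0.672 for the second.

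Ep300 and Crebbp were both highest in number 3, together with Ctnnbip1. In all 3 genes the 2 libraries numbered 3 lay above the other 4, which held for 19.9% of tested genes. Both libraries numbered 2 lay below the other 4 for Crebbp (9.51% of genes) and both numbered 1 for Ctnnbip1 (10.6%). Ep300 differed between numbers 3 and 2 by 0.74 ± 0.32 and Crebbp by 0.52 ± 0.20 (limma adjusted p = 0.183 and 0.143), and neither passed. These differences depend on the scaling, because the genes of a library made up 70% to 84.9% of the common total in numbers 1 and 2 but 93.6% and 95.9% in number 3. After rescaling to the same sum the median of all tested genes between numbers 3 and 1 moved from 0.04 to -0.28, and between numbers 3 and 2 from 0.08 to -0.15. On that scale Ep300 and Crebbp differed by 0.50 and 0.28 between numbers 3 and 2 and by 0.07 and 0.04 between numbers 3 and 1, where the deposited scale gave 0.43 and 0.39. Of the genes called between numbers 3 and 1, 761 were higher and 403 lower as deposited, 642 higher and 661 lower after quantile normalization, and 470 higher and 902 lower after rescaling. For numbers 3 and 2 the split was 499 higher and 359 lower, and it became 438 and 524, and 353 and 725, under the same changes.

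With DMSO 2 left out, so that YH250 2 alone stood for number 2, Ep300 and Ctnna1 passed between numbers 2 and 1 (-0.89 and 0.94, limma adjusted p = 0.049 and 0.0362), and between numbers 3 and 2 (1.32 and -1.004, limma adjusted p = 0.00333 and 0.0169). Without YH250 2 the differences were 0.27 and -0.11, and 0.16 and 0.05, and none passed. In such fits the lone library is assumed to vary like the others. Crebbp, Ctnnb1, Jup and Ctnnbip1 passed in no contrast between numbers under any setting tried.

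**Figure D4:**
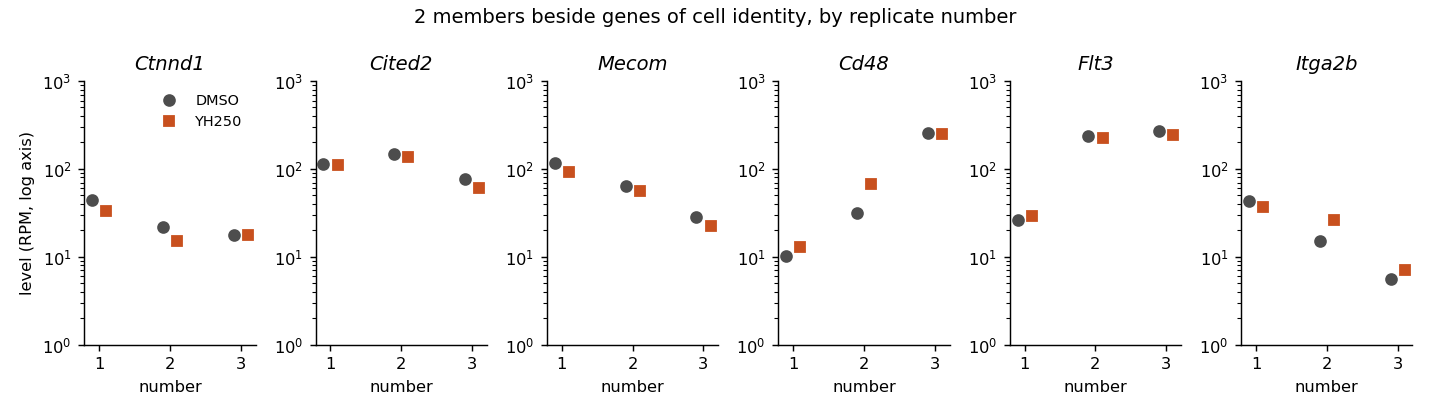
Levels of Ctnnd1 and Cited2 beside Mecom, Cd48, Flt3 and Itga2b (y axis, RPM on a log axis) by replicate number (x axis), with DMSO as circles and YH250 as squares. Ctnnd1 was highest in number 1 (43.8 and 33.6 RPM), as were Mecom (116 and 92.1 RPM) and Itga2b (43.7 and 37.4 RPM), while Cd48 was highest in number 3 (258 and 252 RPM) and Flt3 lowest in number 1 (26.6 and 28.9 RPM).

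Genes of cell identity differed along the same numbers. Mecom, which encodes the stem cell factor EVI1, stood at 116 and 92.1 RPM in the pair numbered 1, at 63.5 and 56.4 RPM in that numbered 2 and at 28.8 and 22.7 RPM in that numbered 3. Not all stem cell markers kept that order. Hlf was highest in number 2 (465 and 375 RPM, against 347 and 256 RPM in number 1). Procr was similar in numbers 1 (47.3 and 36.4 RPM) and 2 (42.3 and 43.8 RPM). Of the progenitor markers, Cd34 was highest in number 2 (505 and 501 RPM, against 402 and 416 RPM in number 3). Flt3, the receptor that marks progenitors beyond the stem cell stage, stood at 26.6 and 28.9 RPM in the pair numbered 1 and at 224 to 271 RPM elsewhere. The summed level of 6 B cell markers was 63.4 and 166 RPM in the pair numbered 1 and 485 and 740.2 RPM in number 3, with Pax5 at 0 in 2 of 6 libraries, and 7 T and NK cell markers summed to 43.4 and 104 RPM in the pair numbered 1 and 449 and 392 RPM in number 3. The 8 neutrophil, monocyte and macrophage markers summed to 137 and 241 RPM in the pair numbered 1 and 414 and 375 RPM in number 3, with Adgre1 and Ly6g each at 0 in 2 libraries. Not every marker of this list followed its sum. Mpo went from 0.810 to 175 RPM between DMSO 1 and DMSO 3, and from 17.1 to 223 RPM between YH250 1 and YH250 3. Elane and Csf1r were likewise higher in both libraries numbered 3. Lyz2 fell instead, from 128 to 124 RPM in DMSO and from 189 to 101 RPM in YH250. S100a8 rose in DMSO (4.07 to 20.3 RPM) and fell in YH250 (4.91 to 2.54 RPM). The part of the sorted cells' composition in the levels of Ctnnd1 and Cited2 was not tested.

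The promoters of the 2 members that differed most between numbers are shown, searched for short motifs of factors known to act through p300 and CBP. They are RefSeq windows on GRCm38.p6, from 250 bases before to 50 bases after a start site. Windows of 7 of the 8 members were searched, and Ctnna1 was left out of the search. Capitals mark ACGTG, the core of the hypoxia response element, in Cited2 and TGACG, the short form of the cyclic AMP response element to which CREB binds, in Ctnnd1, both searched on both strands. The Cited2 window is chr10:17722978-17723277, plus strand, and the 2 windows of Ctnnd1 are chr2:84658928-84659227 (distal start) and chr2:84650691-84650990 (proximal start), minus strand. The distal start lies outside the span of Ctnnd1 given above.
Cited2: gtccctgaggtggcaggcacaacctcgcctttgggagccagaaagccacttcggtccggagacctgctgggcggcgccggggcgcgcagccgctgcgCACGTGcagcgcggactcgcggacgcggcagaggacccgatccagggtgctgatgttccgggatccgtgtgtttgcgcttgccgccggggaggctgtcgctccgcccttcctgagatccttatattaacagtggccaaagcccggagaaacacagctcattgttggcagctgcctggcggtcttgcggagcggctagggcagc
Ctnnd1 distal: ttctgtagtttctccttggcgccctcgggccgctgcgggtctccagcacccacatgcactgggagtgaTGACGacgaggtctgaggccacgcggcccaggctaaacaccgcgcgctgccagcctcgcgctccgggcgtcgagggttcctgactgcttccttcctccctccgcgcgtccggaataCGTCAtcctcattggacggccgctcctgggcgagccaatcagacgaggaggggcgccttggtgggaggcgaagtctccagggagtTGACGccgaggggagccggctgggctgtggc
Ctnnd1 proximal: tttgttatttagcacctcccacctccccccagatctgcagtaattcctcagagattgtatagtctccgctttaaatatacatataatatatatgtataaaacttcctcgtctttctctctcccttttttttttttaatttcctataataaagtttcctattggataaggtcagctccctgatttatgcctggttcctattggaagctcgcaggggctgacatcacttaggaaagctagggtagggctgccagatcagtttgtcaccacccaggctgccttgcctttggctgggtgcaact
The Cited2 window held ACGTG once on each strand, in 2 overlapping matches, and 19.6% of all 32851 windows held at least 1 match. The distal Ctnnd1 window held TGACG 3 times, and 20.8% of all windows held at least 1 match. TGACG is not particular to Ctnnd1 among the members, because a window of Ctnnb1 (chr9:120933328-120933627) held it 2 times. The proximal Ctnnd1 window held neither ACGTG nor TGACG, and it had 3 CpG dinucleotides against 30 in the distal one. TGTGGT, a RUNX motif that 16.8% of all windows held, was found in none of the 10 member windows searched. Neither CTTTGAT nor CTTTGAA, forms of the TCF and LEF site, which 8.7% of windows held, was found in these 10 windows. TGACGTCA, the full cyclic AMP response element (1.8%), was also absent from them. These absences do not cover Ctnna1. A match describes letters in a window and is not evidence of a bound site. The table does not tell which start site was used.

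Per length of the longest coding transcript, the members fell into an order that was led by Cited2 and Ctnnb1. Their levels were 44.7 ± 14.0 and 40.2 ± 7.98 RPM per kb (SD over all 6 libraries), and Cited2 was the higher in 4 of 6 libraries, so the leading pair did not differ beyond their spread. Ctnna1 (13.8 ± 4.11 RPM per kb) and Crebbp (11.2 ± 2.01) followed, both below Ctnnb1 in every library. Ep300 was at 6.01 ± 1.74 RPM per kb, below Crebbp in all 6 libraries with separate ranges, and the mean of Crebbp was 1.86 times that of Ep300. Ctnnbip1 (5.30 ± 1.12), Ctnnd1 (3.93 ± 1.78) and Jup (2.51 ± 1.29) came last, and the ranges of these neighbours overlapped. With all exons merged as the length, Crebbp was still above Ep300 and Ctnnb1 above Ctnna1 in 6 of 6 libraries, but Ctnna1 was above Crebbp in 1 of 6 rather than 4 of 6, and Ctnnbip1 was above Ep300 in all 6.

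**Figure D5:**
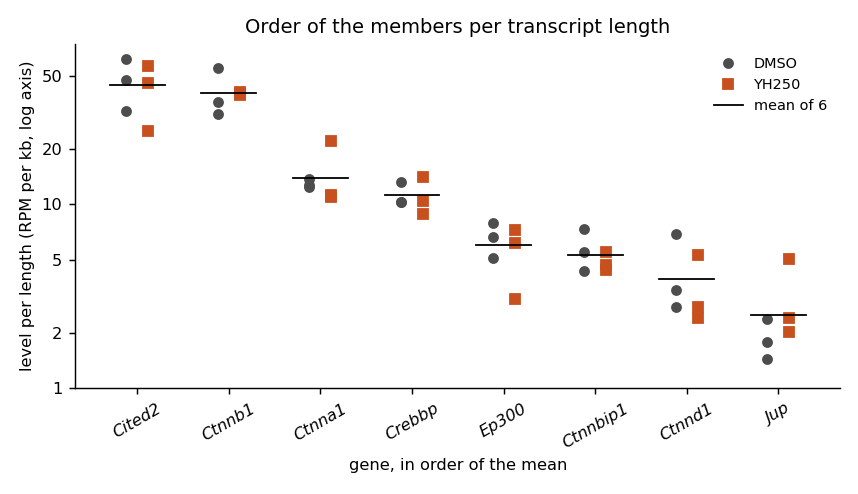
Level per length of the longest coding transcript (y axis, RPM per kb, log axis) for each member, in order of the mean over 6 libraries (x axis, line), with DMSO as circles and YH250 as squares. Cited2 and Ctnnb1 lead at 44.7 and 40.2 RPM per kb and Jup is lowest at 2.51 RPM per kb.

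The genes closest in pattern to each member were taken by the root mean square difference of log2 values, each centred on its own mean, over the 6 libraries, among 8388 named coding genes averaging 10 RPM or more. For Ep300 they were Ovca2, Atxn2 and Mtif2 (0.06, 0.07 and 0.07), and for Crebbp Hnrnpa2b1, Gabpb2 and Mapre1 (0.05, 0.06 and 0.06). Ctnnb1 was closest to Atpif1, Dpm3 and Eef1akmt2 (0.04, 0.04 and 0.06), Ctnnbip1 to Wiz, Cpsf6 and Llph (0.03, 0.05 and 0.06), and Ctnna1 to Nol11, Ykt6 and Ctbp1 (0.05, 0.08 and 0.08). Jup was closest to Ddx19b, Usp10 and Oas3 (0.07, 0.08 and 0.09), among 8389 genes because Jup itself lies below 10 RPM. Cited2 was closest to Mbd1, Tbc1d17 and Cacna1a (0.07, 0.10 and 0.10), and Ctnnd1 to Pafah2, Mum1 and Zfp692 (0.13, 0.14 and 0.16), the loosest match. Among the members themselves the closest pair was Crebbp and Ctnnbip1 (0.19) and the farthest Ep300 and Jup (0.92), which YH250 2 moved in opposite directions. These matches rest on 6 libraries that share depth and composition, and they are given as a description.

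Other genes of the pathway were read from 4 lists. No listed gene passed between YH250 and DMSO with limma, out of 18 tested nuclear partners of beta-catenin, 11 genes of beta-catenin turnover, 10 other catenins and junction genes and 19 partners of p300 and CBP. The list medians were -0.07, -0.07, 0.08 and -0.05 on the log2 scale, against 0.02 for all tested genes. At an unadjusted p under 0.05, limma held 3 of the 58 listed genes (5.17%), against 1.7% of all tested genes. The groups did not overlap for 7 of the 58 (12.1%), against 7.48% of all tested genes, namely Hdac1, Siah1a, Myb, Ruvbl2, Atf1, Tbl1x and Tcf7l2. Atf1, Tbl1x and Tcf7l2 are named only because they are in that count. Ruvbl2, a chromatin ATPase subunit, was at 60.3, 66.5 and 87.5 RPM in DMSO and 107, 108 and 89.1 RPM in YH250 (0.51, limma unadjusted p = 0.0544). Hdac1, a histone deacetylase, was at 88.2, 91.5 and 91.5 RPM in DMSO and 119.8, 129.98 and 122 RPM in YH250 (log2 difference 0.45, limma adjusted p = 0.999). Siah1a, a ubiquitin ligase that can act on beta-catenin, was at 43.7, 41.5 and 39.7 RPM in DMSO and 26.7, 22.1 and 29.9 RPM in YH250 (-0.65, limma adjusted p = 0.999). Myb, a transcription factor of blood progenitors that works through p300 and CBP, was at 386, 428 and 539.8 RPM in DMSO and 263, 261 and 339 RPM in YH250 (-0.64, limma adjusted p = 0.999). Axin2, Cited1, Pygo1 and 8 junction genes, among them Cdh1 and Cdh2, were below the minimum for testing.

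Between numbers, 4 listed genes passed in all. Of the 58, 3 (5.17%) passed as higher in number 3 than in number 1, against 5.6% of all tested genes, and 2 (3.45%) as higher in number 3 than in number 2, against 3.67%, so both shares were close to the background. None of the 58 passed as lower in either contrast, against 2.96% and 2.64% of all tested genes, and none passed between numbers 2 and 1. The TCF gene Tcf7 was at 0.0384 and 2.18 RPM in the pair numbered 1 and 12.7 and 14.6 RPM in number 3, and Lef1 was at 2.04 and 6.73 RPM in the pair numbered 1 and 27.3 and 17.0 RPM in number 3 (limma adjusted p = 0.0337 and 0.0365). Both encode DNA-binding partners of beta-catenin that are also expressed in lymphoid cells. The summed markers of such cells were highest in the same libraries, and the part of these cells in the levels of Tcf7 and Lef1 was not tested. Ctnnd2, a relative of Ctnnd1 best known from neurons, reached 12.5 and 12.6 RPM in the pair numbered 3 against 0 to 0.589 RPM elsewhere (limma adjusted p = 0.00319 against number 1 and 0.00801 against number 2). In the same libraries Ctnnd1 was at 17.6 and 17.6 RPM. Tnks2, a tankyrase that promotes the breakdown of axin, was at 58.8 and 72.0 RPM in the pair numbered 2 and 127 and 117 RPM in number 3 (0.89, limma adjusted p = 0.0408). The list medians between numbers 3 and 1 were -0.02 for nuclear partners and -0.01 for turnover. They were -0.37 for junction genes and 0.39 for p300 and CBP partners, against 0.04 for all tested genes. In the last list 0 of 19 genes passed the threshold. At an unadjusted p under 0.05, limma held 6 of 18, 1 of 11, 5 of 10 and 8 of 19 genes of these lists, in that order. In all, these were 20 of the 58 (34.5%), against 24.4% of all tested genes.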

How the data were processed

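The deposited table holds 1 normalized signal per gene and library. TopHat2 2.0.8, CASAVA 1.8.2, Partek and mouse build mm10 appear in the submitters' processing notes without their roles, and the labels give 50 bp single-end reads. The unit was worked out from the values: every library bottoms out at 1, and low values climb from there in even steps, so values minus 1 were read as RPM. Of low values (up to 20 reads), 61.3% to 68.8% lay within 0.1 of a whole read, so no count model was used. Positions and lengths are from GENCODE M21 on GRCm38.

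Genes averaging 1 RPM or more were tested as log2(RPM + 1), which understates changes of low genes, with limma 3.58.1 in R 4.3.3 (trend and robust), Benjamini-Hochberg adjustment and a threshold of 0.05. Alternatives changed the pseudocount, minimum mean, scaling, eBayes options, replicate block and libraries used. Members, gene lists and tests were chosen with earlier results of these data known. By rule the text names all members, listed genes that pass or have the smallest p, of which the main ones are given, and the 3 closest genes in pattern. Same-numbered libraries deviated together over the tested genes (correlations of 0.55, 0.26 and 0.70, all above 0.1), and no label explains the numbering. Each library correlated most with the one of its own number in the other group. Mixed pairings across numbers 1 and 2 exceeded 0.1 as well, at 0.14 (YH250 1, DMSO 2) and 0.11 (YH250 2, DMSO 1). Pairings of number 3 with another number were negative, from -0.55 to -0.26. Deviations were taken from the mean of each group, so a positive correlation within a number forces negative ones on balance with the others. The negative values are therefore not separate support beyond the 0.70 of number 3. Under the limit of 0.1, number 3 paired only with itself, whereas numbers 1 and 2 were not separated. The summed level of the megakaryocyte and erythroid marker list is not reported here.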

Additional observations from a re-analysis of the deposited data

How the results depend on the processing

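Of the treatment results, 0 genes and 0 members were called under every alternative, and the replicate block changed no member's call. With the block as an exact sign-flip test within numbers, the ratio of Ep300 to Crebbp differed by -0.28 (p = 0.75) and that of Jup to Ctnnb1 by 0.57 (p = 0.25, the smallest 3 pairs allow). Leaving out 1 library gave -0.44 to -0.063 and 0.18 to 0.91 for these ratios.

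Counts called between numbers moved more. For numbers 3 and 1, 1164 genes became 180 with no minimum mean and 526 without trend or robust; leaving out 1 library gave 417 (without DMSO 3) to 3010 (without YH250 2), with 457 without DMSO 1 and 2917 without DMSO 2. Between numbers 2 and 1, 27 became 0 with no minimum mean, 75 with a minimum of 5 RPM, 46 after quantile normalization and 0 without trend or robust, with 39 (without DMSO 1) to 1764 (without DMSO 2) when 1 library was left out, and 53, 89, 134 and 296 without YH250 1, DMSO 3, YH250 3 and YH250 2. For numbers 3 and 2, 858 became 42 with no minimum mean and 154 without trend or robust, and 250 (without DMSO 3) to 3137 (without DMSO 2). Members called between numbers, 1 as fitted, were 0 with no minimum mean, 2 with a minimum of 5 RPM, 2 after quantile normalization, 2 after rescaling, 0 without trend or robust, and 0 (without YH250 3) to 4 (without DMSO 2) otherwise. Fitting the number without treatment as a block gave 965, 18 and 650 genes. The cause was not tested.

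Uncalled differences that changed sign between treatments were, without both libraries numbered 2, Ep300 (0.072), Crebbp (0.053), Ctnnb1 (-0.16) and Ctnna1 (-0.25), and for Ctnnb1 also quantile normalization (-0.044), rescaling (-0.075) and the loss of both libraries numbered 1 (-0.048). Leaving out 1 library gave -0.56 to 0.053 for Ep300, -0.21 to 0.12 for Crebbp, -0.15 to 0.26 for Ctnnb1, -0.22 to 0.27 for Ctnna1, -0.61 to 0.087 for Ctnnd1 and -0.43 to 0.16 for Cited2. For numbers 3 and 1, Ctnnb1 turned to -0.065 after quantile normalization and -0.072 after rescaling, and leaving out 1 library gave -0.0063 to 0.86 for Ep300, -0.092 to 0.66 for Ctnnb1 and -0.35 to 0.22 for Ctnna1. Between numbers 2 and 1 the ranges were -0.89 to 0.27 for Ep300, -0.25 to 0.0093 for Crebbp, -0.37 to 0.18 for Ctnnb1 and -0.11 to 0.94 for Ctnna1. For numbers 3 and 2 they were -1.004 to 0.050 for Ctnna1 and -0.27 to 0.16 for Ctnnd1. Depth limits Jup most, with about 101 reads in DMSO 3.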
